A study of Mus musculus with 6 samples.

Results

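The respiratory chain of the inner mitochondrial membrane is assembled from the products of 2 genomes. The genes described here are 49 of the 44556 rows of the count tables, of which 13 are the protein-coding genes of the mitochondrial genome and 36 are nuclear genes named as subunits of complex I. The members were matched by gene name, with no use of their values. The mitochondrial set holds 7 genes of complex I (ND1, ND2, ND3, ND4, ND4L, ND5 and ND6), CYTB of complex III, COX1, COX2 and COX3 of complex IV, and ATP6 and ATP8 of ATP synthase. The nuclear set holds 13 Ndufa, 10 Ndufb, 2 Ndufc, 8 Ndufs and 3 Ndufv genes, spread over 15 chromosomes.

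Complex I accepts electrons from NADH at the tip of an arm that reaches into the matrix, passes them along iron-sulfur clusters to ubiquinone, and pumps protons through an arm that lies in the membrane. The mitochondrial ND genes encode the pumping core of the membrane arm, while the redox core of the matrix arm and all accessory subunits are encoded in the nucleus. Mitochondrial messenger RNAs are cut out of long transcripts of the whole genome, whereas each nuclear subunit gene has its own promoter. A pool of STAT3 has been described inside mitochondria, and NDUFA13, also called GRIM-19, is known to bind STAT3. Muscle and brown fat are tissues rich in mitochondria.

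RNA-seq was carried out on the parietal bone of newborn C57BL/6 mice, with 3 libraries from OsxCre mice and 3 from OsxCre;Stat3fl/fl littermates. Both genotypes carried the Osx-driven Cre recombinase, which is active mainly in osteoblast precursors, and the second also carried homozygous Stat3 alleles with loxP sites around part of the gene. The tissue was whole bone with the cells attached to it, so cells without Cre contributed to every library. In such bulk RNA, fewer cells of a type cannot be told apart from less RNA per cell. The question put to the members was whether transcripts of the respiratory chain differed between genotypes, and whether the mitochondrial and nuclear sets moved together.

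Library totals were between 8193651 and 12080044 counts, and every library labelled OsxCre;Stat3fl/fl was smaller than every OsxCre library. Values below are CPM, the counts of a gene as parts of the library total after scaling by the trimmed mean of M-values (TMM), unless another scale is named. Stat3 itself had 150, 135 and 141 CPM in OsxCre and 153, 155 and 155 CPM in the libraries labelled OsxCre;Stat3fl/fl, a log2 fold change of 0.12 (SE 0.070, edgeR adjusted p = 0.442). After scaling, the targeted gene was thus not lower in any library labelled OsxCre;Stat3fl/fl. A count over the whole gene does not separate the deleted exons from the rest, so genotypes are given as labelled. All 11 genes of an osteoblast marker list were detected, and Ibsp (bone sialoprotein) had 1017, 1060 and 932 CPM in OsxCre and 610, 663 and 627 CPM in the libraries labelled OsxCre;Stat3fl/fl (edgeR adjusted p = 0.0213). Ibsp was the single gene of the 11 called by edgeR, where 0.481% of all genes tested were called lower and 0.776% higher. DESeq2's Wald test called 2 of them lower (Ibsp and Alpl), where it called 1.51% of all genes lower. With limma-voom, 1 was called lower (Ibsp), where 0.397% of all genes were. Of the 11, 8 had negative and 3 positive log2 fold changes. Genes of skeletal muscle and of brown fat were also detected, and their levels are given with the results they move with.

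The mitochondrial-encoded genes lie in a closed circle of 16299 bases, and their positions there were the same in the GENCODE annotation of NCBIM37 (mm9) and in RefSeq's GRCm38.p6. Some of them share bases. ATP8 and ATP6 overlap by 43 bases, ND5 and ND6 by 14 bases on opposite strands, ND4L and ND4 by 7 bases, and ATP6 and COX3 by 1 base. The first of these overlaps is shown because both genes are among the 4 whose libraries separated by genotype, described below, and a read from it lies in both. Capitals mark the bases that ATP8 and ATP6 share, on the strand of both genes, at chrM:7917-7979 of NCBIM37:
ATP8-ATP6 overlap: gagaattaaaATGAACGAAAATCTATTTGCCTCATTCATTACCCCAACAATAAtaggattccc

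A stretch of the nuclear genome repeats part of this circle almost base for base. In NCBIM37, chr1:24618374-24623027 (minus strand) matched mitochondrial bases 6390 to 11042 with 99.9% identity over 4654 aligned positions, with 2 mismatches and 1 gap. It holds the whole of COX2, ATP8, ATP6, COX3, ND3 and ND4L, 63.6% of ND4 and 31.3% of COX1. Among windows of 50 bases, 100% of those in COX2, ATP8, ATP6, COX3 and ND4L had an exact nuclear copy, as did 99% of those in ND3. The share was 62.2% in ND4, 51.1% in COX1, 8.29% in ND2 and 7.61% in ND5, and 0 in ND1, ND6 and CYTB. How the authors' counting treated reads that match several places is not given in the sources used here.

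The only difference inside the 6 fully copied genes is T9461C in ND3, where T is the mitochondrial base, 9461 its position counted from base 1 of chrM, and C the base of the nuclear copy. The windows are shown because they hold the only letter by which a read inside ND3 could be placed in 1 genome. Inside COX2, ATP8, ATP6, COX3 and ND4L no letter differs. The windows cover chrM:9446-9476 of NCBIM37, and the nuclear line is written in the same direction, with the differing base in capitals:
ND3 start, mitochondrial: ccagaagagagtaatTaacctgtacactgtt
ND3 start, nuclear copy: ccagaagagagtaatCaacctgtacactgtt

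Levels of the mitochondrial-encoded genes ranged widely, and only a level per length can be compared between genes. COX1, the catalytic core of cytochrome c oxidase, was the highest with 16305 CPM per kilobase as the mean of the 6 libraries. CYTB, the cytochrome of complex III, followed with 10275, and ND1, which helps form the ubiquinone site of complex I, with 7211 CPM per kilobase. ND4, ND2 and ND5 had 2774, 2488 and 1818 CPM per kilobase. The other 7 members of the set had at most 275 CPM per kilobase.

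The 6 genes that lie wholly in the nuclear copy had between 33.2 and 275 CPM per kilobase, with a median of 119. The remaining 7 genes had between 103 and 16305 CPM per kilobase, with a median of 2774. ND6, the single protein-coding gene on the opposite strand, was the lowest of these 7. ND3, ND4L and ATP8 were the lowest of all 13, with 33.2, 37 and 71.5 CPM per kilobase. These are levels of the reads that were counted, and the part of the nuclear copy in them was not tested. The order of the genes in the libraries is drawn in the plot of levels along the mitochondrial genome.

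**Figure D1:**
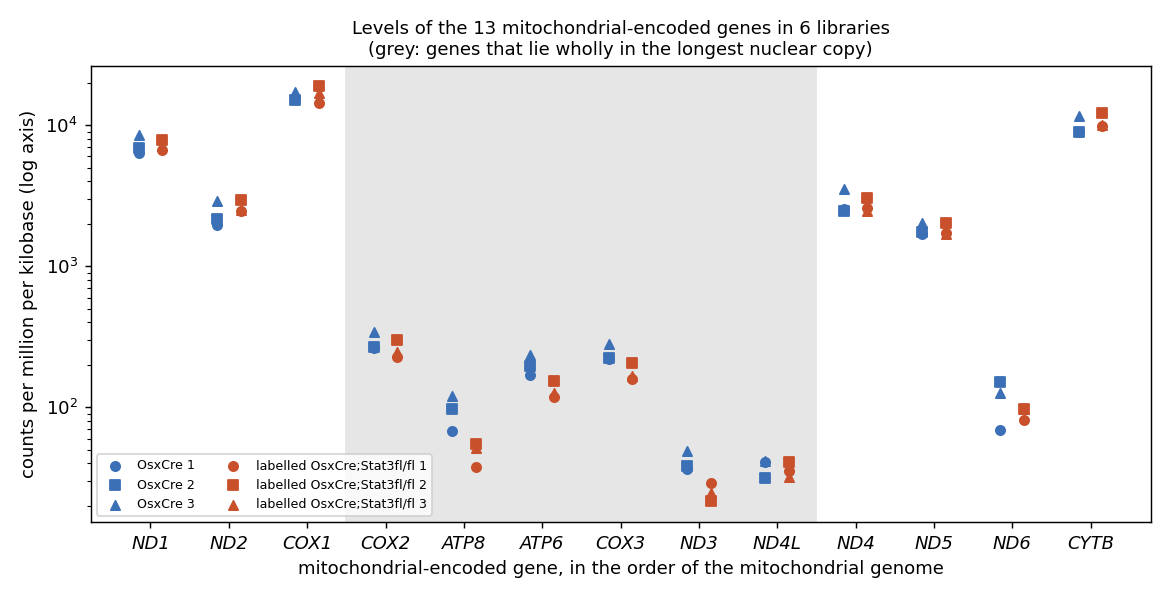
Levels of the 13 mitochondrial-encoded genes, as CPM per kilobase on a log axis, in the order of the mitochondrial genome, with 1 point per library (blue OsxCre, orange labelled OsxCre;Stat3fl/fl). The genes on grey lie wholly in the nuclear copy and have at most 344 CPM per kilobase in any library, and for ATP8, ATP6, COX3 and ND3 all orange points lie under all blue points.

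The mitochondrial-encoded genes together took 4.98%, 5.17% and 5.97% of all counts in the OsxCre libraries, or 5.37% ± 0.522 (SD, n = 3). In the libraries labelled OsxCre;Stat3fl/fl they took 5.03%, 5.77% and 5.38%, or 5.40% ± 0.371 (SD, n = 3). The ranges overlapped, and the difference of 0.0229 percentage points was smaller than the spread within each genotype. COX1 alone made up between 44.3% and 48.2% of the mitochondrial counts in the 6 libraries.

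Of the 13 mitochondrial-encoded genes, 0 were called at an adjusted p under 0.05 (edgeR's quasi-likelihood test, adjusted over 15600 genes), where 0.481% of all genes tested were called lower and 0.776% higher, or 1.26% in either direction. At an unadjusted p under 0.05, 4 were lower and 0 higher, where 8.34% of all genes were lower and 8.03% higher. DESeq2's Wald test called 3 of the 13 lower, where it called 1.51% of all genes lower, and limma-voom called 0, where it called 0.397% lower. The median log2 fold change of the 13 was -0.075, beside -0.0037 over all genes tested.

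The 4 genes with an unadjusted p under 0.05 were neighbours on the mitochondrial genome. ATP8, a small subunit of the membrane part of ATP synthase, had 13.9, 19.8 and 24.3 CPM in OsxCre and 7.69, 11.3 and 10.5 CPM in the libraries labelled OsxCre;Stat3fl/fl. Its counts were 146, 200 and 290 against 64, 92 and 90. Every library labelled OsxCre;Stat3fl/fl was thus below every OsxCre library, with a log2 fold change of -0.98 (SE 0.24, edgeR adjusted p = 0.102). ATP6, which forms the proton channel of ATP synthase, had 115, 134 and 160 CPM in OsxCre against 81.2, 104 and 86.7 CPM. It also did not overlap between genotypes, and its log2 fold change was -0.59 (SE 0.14, edgeR adjusted p = 0.103).

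COX3, a membrane subunit of cytochrome c oxidase, had 173, 175 and 219 CPM in OsxCre and 125, 160 and 130 CPM in the libraries labelled OsxCre;Stat3fl/fl. The log2 fold change was -0.45 (SE 0.13, edgeR adjusted p = 0.149), again without overlap. ND3, a subunit of the membrane arm of complex I, had 12.8, 13.3 and 17 CPM against 10.1, 7.48 and 8.65 CPM, from counts of at most 203. Its log2 fold change was -0.72 (SE 0.18, edgeR adjusted p = 0.112), and its values did not overlap. Non-overlap toward lower values was found for these 4 of the 13, where 12.2% of all genes tested showed it, and for 0 of the 13 toward higher values, where 10.8% did.

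These 4 genes lie wholly within the nuclear copy, and the other two genes there gave smaller differences. COX2, the subunit that takes electrons from cytochrome c, had 180, 184 and 235 CPM in OsxCre and 156, 204 and 169 CPM in the libraries labelled OsxCre;Stat3fl/fl. Its log2 fold change was -0.18 (95% interval -0.50 to 0.14, edgeR adjusted p = 0.574). ND4L, a small subunit of the membrane arm, had 12.1, 9.42 and 12.3 CPM in OsxCre against 10.4, 12.1 and 9.59 CPM, and both genes overlapped between genotypes. All 6 genes of the copied stretch had a negative log2 fold change, with a median of -0.52, against a median of -0.0074 for the remaining 7, of which 4 were negative. This split by the copied stretch was made after the values were seen, and it was not tested.

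For the most counted mitochondrial genes the ranges of the genotypes overlapped. COX1 had 23701, 23438 and 26771 CPM in OsxCre and 22202, 29077 and 25957 CPM in the libraries labelled OsxCre;Stat3fl/fl, a log2 fold change of 0.063 (95% interval -0.28 to 0.41). CYTB had 10290, 10178 and 13309 CPM in OsxCre against 11200, 14002 and 11547 CPM, with a log2 fold change of 0.12 (95% interval -0.25 to 0.49). ND1 had 6031, 6577 and 8146 CPM in OsxCre against 6360, 7513 and 6776 CPM, with a log2 fold change of -0.0074 (95% interval -0.35 to 0.33). As folds, the intervals ran from 0.824 to 1.32 for COX1 and from 0.787 to 1.26 for ND1.

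ND5, a proton-pumping subunit, had 3077, 3207 and 3696 CPM in OsxCre and 3160, 3676 and 3083 CPM in the libraries labelled OsxCre;Stat3fl/fl. Its log2 fold change was -0.0089 (95% interval -0.30 to 0.28). ND4, the pump beside it, had 3496, 3405 and 4834 CPM against 3577, 4212 and 3413 CPM, with a log2 fold change of -0.067. ND2 had the largest positive log2 fold change of the set, 0.18 (SE 0.16, edgeR adjusted p = 0.638), from 2019, 2245 and 2998 CPM to 2577, 3040 and 2616 CPM. In all 3 genes the ranges of the genotypes overlapped.

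ND6 varied widely between OsxCre libraries. It had 36.1, 77.8 and 65 CPM in OsxCre and 42.4, 50.1 and 50.4 CPM in the libraries labelled OsxCre;Stat3fl/fl. OsxCre library 1 was below every library of the other genotype and OsxCre library 2 above them, and the log2 fold change was -0.32 (SE 0.25, edgeR adjusted p = 0.575). ND6 overlaps ND5 on the opposite strand, and the strand setting of the counting is not given in the sources used here, so reads of both cannot be told apart there.

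Of the 36 nuclear complex I subunits, 35 had enough counts to be tested, and 0 of the 35 were called in either direction at an adjusted p under 0.05 by edgeR's quasi-likelihood test, by DESeq2's Wald test or by limma-voom. At an unadjusted p under 0.05, edgeR and limma-voom gave 0 and DESeq2 gave 1, which was higher, where it gave 6.12% of all genes as higher. In 0 of the 35 genes did the libraries of the genotypes separate, where 23% of all genes tested separated in 1 direction or the other. The median log2 fold change was 0.078, with a range from -0.18 to 0.26, and 26 of the 35 were positive.

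The 95% interval of the log2 fold change lay within a 1.5-fold change for 33 of the 35 nuclear subunits, where 54.8% of all genes tested had such an interval. The exceptions were Ndufb6 and Ndufs5, whose upper bounds were 1.53-fold and 1.52-fold. In the mitochondrial set, 8 of 13 intervals lay within 1.5-fold. The plot of genotype differences shows the members side by side.

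**Figure D2:**
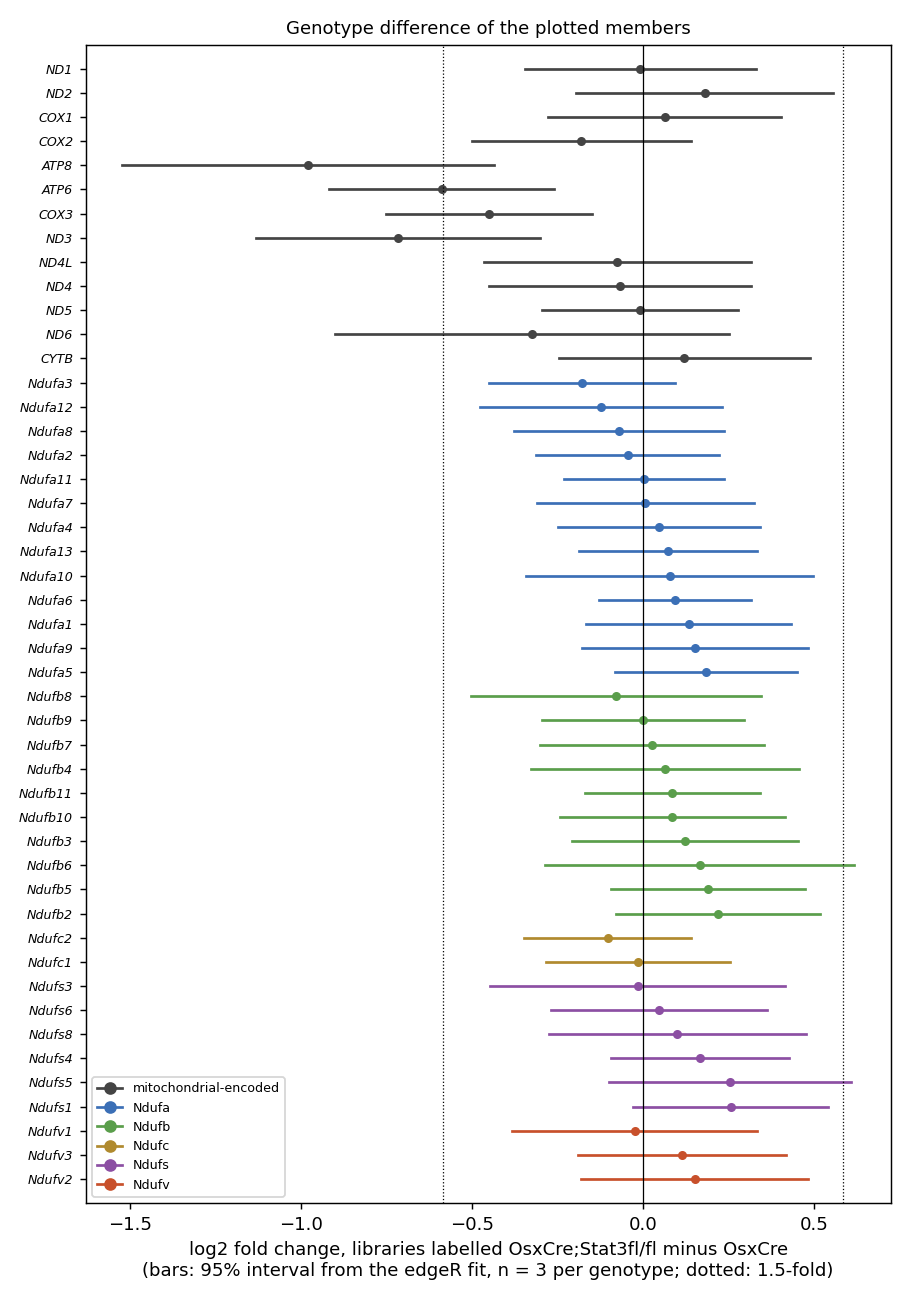
Log2 fold change of tested members, 1 line per gene, libraries labelled OsxCre;Stat3fl/fl minus OsxCre, with the 95% interval of the edgeR fit (n = 3 per genotype) and dotted lines at 1.5-fold. The intervals of ATP8, ATP6, COX3 and ND3 lie left of 0, and every other interval drawn crosses 0.

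The redox core of the matrix arm begins with Ndufv1, which binds NADH and the flavin that takes its electrons. Ndufv1 had 250, 247 and 325 CPM in OsxCre and 234, 324 and 250 CPM in the libraries labelled OsxCre;Stat3fl/fl, a log2 fold change of -0.024 (95% interval -0.38 to 0.33). Ndufv2, its iron-sulfur partner, had 236, 222 and 279 CPM against 242, 330 and 246 CPM, with a log2 fold change of 0.15 (SE 0.14, edgeR adjusted p = 0.657). Ndufv3, an accessory subunit of the same module, had a log2 fold change of 0.12. Within each genotype 1 library stood above the other two in all 3 genes, and it was library 3 in OsxCre and library 2 in the other genotype.

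Ndufs1, which carries iron-sulfur clusters next to the NADH site, had 198, 192 and 238 CPM in OsxCre and 219, 283 and 248 CPM in the libraries labelled OsxCre;Stat3fl/fl. Its log2 fold change of 0.26 (SE 0.12, edgeR adjusted p = 0.348) was the largest of the nuclear set and did not pass. Ndufs3, a core subunit of the matrix arm, had 121, 117 and 177 CPM against 117, 165 and 129 CPM. Its log2 fold change of -0.015 (95% interval -0.45 to 0.42) was the lowest of the Ndufs group. Ndufs8, which hands electrons towards ubiquinone, had a mean of 118 ± 20.1 CPM in OsxCre and 127 ± 24.6 CPM (SD, n = 3 each) in the other genotype.

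Ndufs7, the core subunit with the last iron-sulfur cluster before ubiquinone, could not be assessed. The tables list it with 1 count in OsxCre library 3 and 0 counts in the other 5 libraries, while Ndufs5, the least counted of the tested Ndufs genes, had between 351 and 608 counts. A count of 0 allows up to 3 counts, or between 0.248 and 0.366 CPM in these libraries, as counting error only. RefSeq places Ndufs7 on chromosome 10 of GRCm38.p6 from 80249105 to 80256794. The subunit belongs to the catalytic core of complex I, and its level is given only as the tables list it.

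Among the accessory subunits, Ndufa4 had the highest level per length of all nuclear members, 772 CPM per kilobase of its longest coding transcript. It was named as a complex I subunit and is now placed with cytochrome c oxidase. It had 352, 353 and 415 CPM in OsxCre and 351, 455 and 352 CPM in the libraries labelled OsxCre;Stat3fl/fl, with a log2 fold change of 0.048 (95% interval -0.25 to 0.34). In the Ndufa group the log2 fold changes ran from -0.18 for Ndufa3 (edgeR adjusted p = 0.506) to 0.18 for Ndufa5 (edgeR adjusted p = 0.474). Ndufa13, singled out here for its known binding to STAT3 and after its values were seen, had 251, 215 and 266 CPM in OsxCre and 250, 288 and 234 CPM in the other genotype. Its log2 fold change was 0.074 (95% interval -0.19 to 0.33), and the genotypes overlapped.

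The Ndufb genes encode accessory subunits of the far part of the membrane arm. Their log2 fold changes ran from -0.079 for Ndufb8 to 0.22 for Ndufb2 (edgeR adjusted p = 0.449), with a median of 0.086, and 9 of the 10 were positive. Ndufb9 was the highest of them per length at 427 CPM per kilobase, with 260, 255 and 320 CPM against 256, 321 and 257 CPM and a log2 fold change of 0.00083. Ndufb4 stood apart with between 94 and 145 counts per library, or 12.2 CPM per kilobase, the lowest of the tested nuclear subunits. The Ndufc genes, Ndufc1 and Ndufc2, had log2 fold changes of -0.013 and -0.10, and Ndufc2 was the higher per length at 161 CPM per kilobase. The median level of the 35 tested nuclear subunits was 154 CPM per kilobase, with quartiles from 92.2 to 232 CPM per kilobase.

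The ratio of the sets was then read within each library, where scaling of the libraries cancels. The 13 mitochondrial-encoded genes had 9.15, 9.78 and 9.36 times the counts of the 36 nuclear subunits in the OsxCre libraries. In the libraries labelled OsxCre;Stat3fl/fl the ratio was 9.14, 8.98 and 9.87. The means were 9.43 ± 0.319 and 9.33 ± 0.471 (SD, n = 3 each), and the ranges overlapped. On the log2 scale the difference was -0.016, against a pooled SD of 0.061. The sum is led by COX1, but without COX1 the log2 difference was also small, at -0.018 (pooled SD 0.065). When each gene counted alike, through the geometric mean over members, the log2 difference was -0.29 (pooled SD 0.11). By the geometric mean the log2 ratio was 1.65, 1.90 and 1.82 in OsxCre and 1.49, 1.43 and 1.58 in the libraries labelled OsxCre;Stat3fl/fl, which did not overlap. In it ATP8, ND3, ATP6 and COX3, with log2 fold changes of -0.98, -0.72, -0.59 and -0.45, weighed as much as COX1. The other mitochondrial-encoded genes lay between -0.32 and 0.18. Of the 13, 10 had negative and 3 positive log2 fold changes, beside 9 negative and 26 positive of the 35 nuclear subunits. The sums in turn are led by the most counted genes, so each measure describes the set by its own weights. Neither difference was tested.

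**Figure D3:**
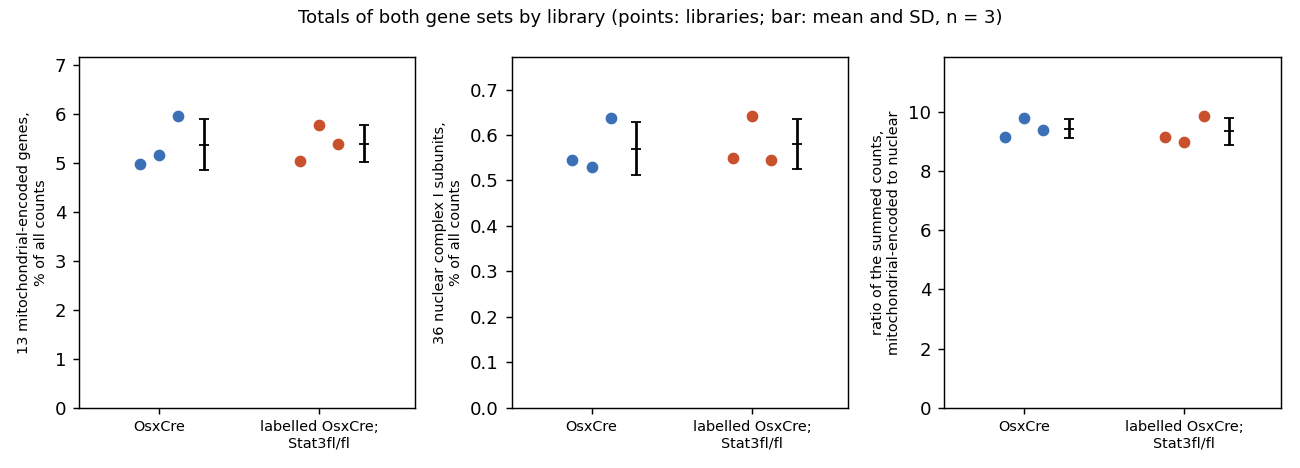
Share of all counts taken by the 13 mitochondrial-encoded genes and by the 36 nuclear complex I subunits, and the ratio of their counts, with 1 point per library and the mean and SD beside them (n = 3 per genotype, linear axes from 0). The points of the genotypes overlap in all 3 panels, and the ratio stays between 8.98 and 9.87.

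The members varied together between libraries of the same genotype. OsxCre library 3 was the highest of its genotype for 34 of the 35 tested nuclear subunits, where 35.3% of all genes tested were highest in it. The library labelled OsxCre;Stat3fl/fl 2 was the highest of its group for 35 of the 35, where 36.6% of all genes were. The mitochondrial-encoded genes were highest in the same libraries, with 12 of 13 in OsxCre library 3 and 11 of 13 in the library labelled OsxCre;Stat3fl/fl 2. Other nuclear genes of the respiratory chain, outside the members, shared this pattern. In the same library order, complex II had 4 of 4 and 4 of 4, complex III 8 of 9 and 9 of 9. Complex IV and ATP synthase each had 13 of 16 and 15 of 16, and the large mitochondrial ribosomal subunit 36 of 47 and 38 of 47. The pattern was thus not particular to the members. Over the 35 nuclear subunits, OsxCre library 3 exceeded the mean of the other two OsxCre libraries by a median of 0.31 on the log2 scale of CPM + 1. For library 2 of the other genotype the median was 0.32. Both values were larger than the median genotype difference of 0.078.

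Marker genes of brown fat, among those of other cell types, moved with the same libraries. Ucp1, the uncoupling protein of brown adipocytes, had 113, 284 and 1793 CPM in OsxCre and 137, 856 and 584 CPM in the libraries labelled OsxCre;Stat3fl/fl. The brown adipocyte list, of which 4 of 4 genes were detected and none was at 0, summed to between 162 and 2259 CPM in OsxCre and between 220 and 1145 CPM in the other genotype. It was highest in OsxCre library 3 and in library 2 of the other genotype, for 4 of its 4 genes in each. It did not separate the genotypes (0 of 4 genes called or without overlap). A list of 5 general adipocyte genes was highest in OsxCre library 3 for 5 genes and in library 2 of the other genotype for 4, with sums of 513, 628 and 1904 CPM against 813, 1752 and 1367 CPM. The neural list went the other way, with sums of 221, 272 and 91.2 CPM in OsxCre and 223, 44.1 and 169 CPM in the other genotype, lowest in the same libraries. Erythroid sums were 3934, 2966 and 4112 CPM in OsxCre and 2239, 2762 and 1520 CPM in the other genotype, highest in the same libraries. Endothelial sums were 517, 418 and 601 CPM against 510, 614 and 573 CPM, also highest there. The cartilage list and the macrophage and osteoclast list were highest in OsxCre library 3 but lowest in library 2 of the other genotype. The part of these cell types in the levels of the members was not tested.

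Of 14 skeletal muscle genes, all detected, edgeR called 1 lower (Myh4) and 1 higher (Myh3), where it called 0.481% of all genes lower and 0.776% higher. By edgeR 8 were higher at an unadjusted p under 0.05, where 8.03% of all genes were. DESeq2 called 1 lower and 8 higher, where it called 1.51% of all genes lower and 1.95% higher. In limma-voom 1 was called in each direction, where 0.397% of all genes were called lower and 0.756% higher. The list summed to 33755, 32896 and 35503 CPM in OsxCre and to 45301, 57058 and 38089 CPM in the libraries labelled OsxCre;Stat3fl/fl. Library 2 of the latter was the highest for 14 of 14 genes. In OsxCre, library 3 was the highest for 7 of the 14, library 1 for 5 and library 2 for 2. Ckm, the muscle creatine kinase, had 4273, 4070 and 4146 CPM against 6212, 7404 and 5002 CPM (edgeR adjusted p = 0.127). Myh4, a fast myosin, fell from 420, 411 and 478 CPM to 30.6, 39.1 and 37.3 CPM (edgeR adjusted p = 3.87e-05). Myoglobin (Mb) had 241, 152 and 247 CPM against 157, 217 and 196 CPM. The osteoblast list summed to 34921, 26350 and 30632 CPM in OsxCre and to 23724, 28771 and 29995 CPM in the other genotype. Its order of libraries differed from that of the members. In OsxCre, 7 of its 11 genes were highest in library 1 and 1 in library 3. In the other genotype, 8 were highest in library 3 and 2 in library 2. The part of muscle and osteoblast RNA in the values of the members was not tested.

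**Figure D4:**
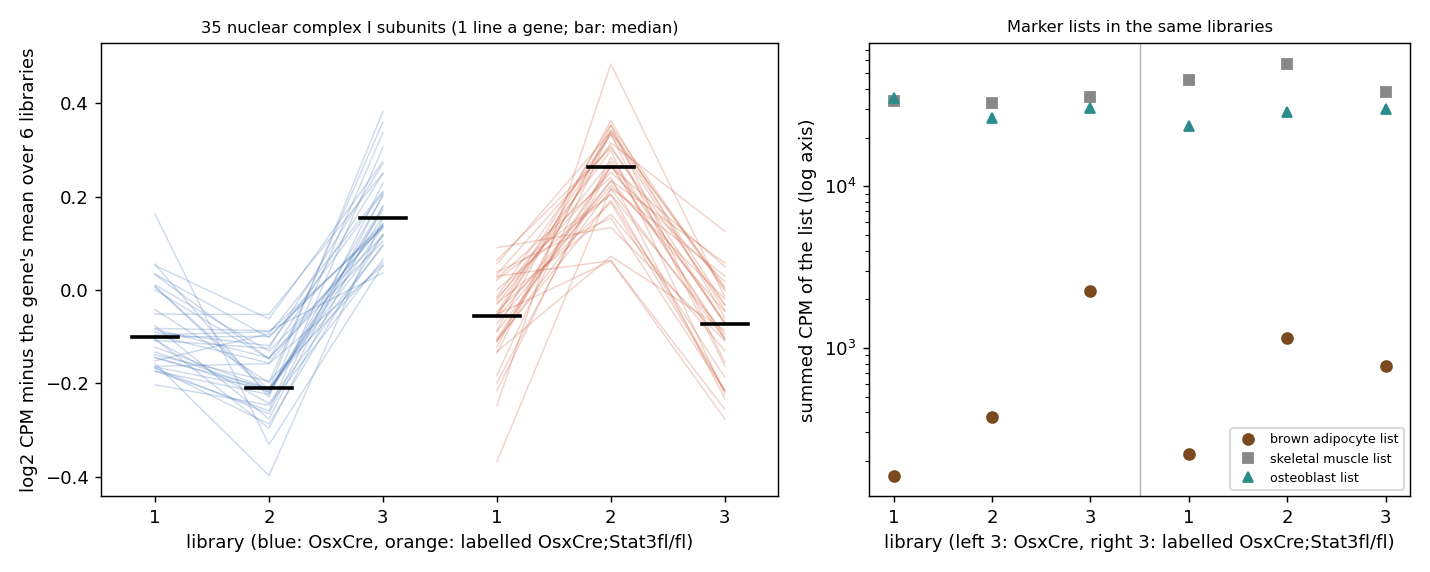
Left, log2 CPM of the 35 tested nuclear complex I subunits minus each gene's mean over the 6 libraries, 1 line per gene and a black bar at the median of each library. Right, summed CPM of the brown adipocyte, skeletal muscle and osteoblast lists on a log axis, in the same library order. Library 3 of OsxCre and library 2 of the genotype labelled OsxCre;Stat3fl/fl are the highest of their groups in the left panel and for brown adipocyte genes.

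The rest of the respiratory chain was read from lists of nuclear genes, and 0 genes of any of them were called in either direction by edgeR, DESeq2 or limma-voom. At an unadjusted p under 0.05 edgeR gave 1 gene of these lists, an ATP synthase gene that was higher, where 8.03% of all genes were. The median log2 fold change was 0.030 for the 4 genes of complex II, 0.10 for the 9 nuclear genes of complex III, 0.11 for the 16 of complex IV and 0.056 for the 16 of ATP synthase. Uqcrc2 of complex III had the largest change of its list, 0.27 (SE 0.16, edgeR adjusted p = 0.455), and Atp5b, the catalytic subunit of ATP synthase, also had 0.27 (SE 0.19, edgeR adjusted p = 0.532). Of the 16 nuclear ATP synthase genes 12 had positive and 4 negative log2 fold changes. In complex IV the largest was Cox8b, an isoform of striated muscle and brown fat, at -0.35 (SE 0.22, edgeR adjusted p = 0.474). In complex II, Sdhb, its iron-sulfur subunit, had 0.23 (edgeR adjusted p = 0.592), and among 8 genes of cytochrome c and coenzyme Q synthesis Coq3 had -0.16 (edgeR adjusted p = 0.683).

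Genes that build complex I or express the mitochondrial genome gave 0 calls by all 3 tools. At an unadjusted p under 0.05 edgeR gave 1 lower assembly factor, and 1 lower and 1 higher gene of mitochondrial transcription. Of all genes, 8.34% were lower and 8.03% higher at this threshold. Among 13 assembly factors, Tmem126b, a factor of the membrane arm, had 15.2 ± 0.0743 CPM in OsxCre and 11.9 ± 0.331 CPM (SD, n = 3 each) in the other genotype, a log2 fold change of -0.35 (SE 0.11, edgeR adjusted p = 0.186). Of 20 genes of mitochondrial transcription and its regulators, 19 were tested. Mtpap, the mitochondrial poly(A) polymerase, had the largest log2 fold change, 0.64 (SE 0.28, edgeR adjusted p = 0.307). Ppargc1a, a coactivator of mitochondrial gene programs in muscle and brown fat, had 32.4, 23 and 35.6 CPM in OsxCre and 15.9, 23.3 and 19.5 CPM in the libraries labelled OsxCre;Stat3fl/fl, with a log2 fold change of -0.63 (SE 0.20, edgeR adjusted p = 0.170). It is named after its values were seen, and 1 library of each genotype overlapped.

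The proteins of the mitochondrial ribosome gave 0 calls by edgeR and limma-voom. DESeq2 gave 1 (Mrpl50, higher), where it called 1.95% of all genes higher. The median log2 fold change was -0.031 over 46 tested genes of the large subunit and 0.028 over 29 of the small subunit. At an unadjusted p under 0.05 edgeR gave 2 lower and 2 higher genes of the large subunit and 2 lower and 1 higher of the small. Of all genes, 8.34% were lower and 8.03% higher at this threshold. Mrpl50 had the largest change of the large subunit, 0.37 (SE 0.078, edgeR adjusted p = 0.0778), from 56.7 ± 1.28 CPM in OsxCre to 73.1 ± 5.21 CPM (SD, n = 3 each). In the small subunit Mrps12 had -0.29 (SE 0.14, edgeR adjusted p = 0.365).

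The mitochondrial genome also encodes ribosomal and transfer RNAs, whose 24 rows are outside the members and were looked at after the members' values were seen. Only 7 of them had enough counts to be tested. Of these, 0 were called by edgeR or limma-voom, and 4 were called higher by DESeq2, where it called 1.95% of all genes higher. By edgeR 4 were higher at an unadjusted p under 0.05, beside 8.03% of all genes. Rnr2, the large ribosomal RNA, had 761, 662 and 806 CPM in OsxCre and 938, 1005 and 1563 CPM in the libraries labelled OsxCre;Stat3fl/fl, with a log2 fold change of 0.65 (SE 0.20, edgeR adjusted p = 0.161). TrnL1, the transfer RNA gene between Rnr2 and ND1, had 12.4, 17.6 and 24.1 CPM against 33.1, 43.4 and 39.3 CPM (edgeR adjusted p = 0.0705). All 7 tested rows had positive log2 fold changes, whereas 3 of the 13 protein-coding genes did. The labels give polyadenylated RNA for these libraries. The study's Methods name total RNA as what was isolated, a step before the libraries were prepared.

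Promoters of the nuclear subunits were read for shared letters, as a description. RefSeq's GRCm38.p6 table gave a promoter (250 bases before to 50 after the annotated start) for 32 of the 36, and 8 motifs were searched on both strands. The letters TTCNNNGAA, the spaced palindrome that STAT proteins bind, occurred in 2 of the 32 (6.25%), where 9.55% of all 27025 genes with a promoter held them. The matches are shown because Stat3 is the gene targeted in these mice. Capitals mark the motif, each line is in the direction of the gene, and the positions are chr2:36049543-36049571 and chr2:36049398-36049426 for Ndufa8 and chr4:40279608-40279636 and chr4:40279460-40279488 for Ndufb6, all on the minus strand:
Ndufa8, motif from base -223: cgtttatgtaTTCCCCGAAatactggctc
Ndufa8, motif from base -78: accgctagacTTCCTGGAAtggcttacgc
Ndufb6, motif from base -205: tacaagttctTTCTCTGAAccctagcccc
Ndufb6, motif from base -57: agagcctgctTTCCGCGAAggagtcggcc

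Ndufa8 and Ndufb6, both accessory subunits, had log2 fold changes of -0.069 (95% interval -0.38 to 0.24) and 0.17 (95% interval -0.29 to 0.62). For both genes the genotypes overlapped.

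The letters AAGATGGC, the core bound by YY1, were the most frequent of the 8 motifs relative to all promoters. They occurred in 7 of the 32 members (21.9%), where 3.19% of all promoters held them, and the motif was picked out after these shares were seen. In all 7 the letters ran in the direction of the gene and began 23 to 39 bases after the start used for the promoter. For Ndufs7 and Ndufa3 that start lies inside the RefSeq gene, which begins further upstream, at 80249105 and 3617347. The place of the motif in these genes thus depends on the start chosen. The letters ATG inside them can also be the first codon of the protein. They are shown because they share both the letters and their place, with the motif in capitals, for Ndufa3 (chr7:3617385-3617412, plus strand), Ndufa9 (chr6:126849098-126849125, minus strand), Ndufb8 (chr19:44555393-44555414, minus strand), Ndufc1 (chr3:51408916-51408943, minus strand), Ndufs4 (chr13:114388045-114388069, minus strand), Ndufs6 (chr13:73328433-73328459, minus strand) and Ndufs7 (chr10:80249463-80249490, plus strand):
Ndufa3: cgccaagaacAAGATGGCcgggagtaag
Ndufa9: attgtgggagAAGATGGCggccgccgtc
Ndufb8: ggagaaggtgAAGATGGCtgcc
Ndufc1: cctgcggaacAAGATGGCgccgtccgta
Ndufs4: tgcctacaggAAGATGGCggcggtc
Ndufs6: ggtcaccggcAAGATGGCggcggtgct
Ndufs7: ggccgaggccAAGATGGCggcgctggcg

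The 6 tested genes of these 7 had log2 fold changes between -0.18 (Ndufa3) and 0.17 (Ndufs4). The palindrome bound by NRF1 occurred in Ndufa11 alone (3.12% of members, 1.07% of all promoters). CCGGAAG, a core of ETS factors, occurred in 4 of 32 (12.5%, beside 9.93% of all), CACGTG in 2 (6.25%, beside 8.09%), CCAAT in 10 (31.2%, beside 41.1%), TATAAA in 4 (12.5%, beside 15.7%) and GGGCGG in 14 (43.8%, beside 38.2%). CCGGAAG and AAGATGGC can overlap, since the end of the first is the start of the second. Such matches are letters in a window and say nothing of binding.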

How the data were processed

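The authors deposited whole-number read counts per gene symbol for each library, without normalization, and all 6 libraries were used (3 per genotype, replicate numbers from the sample labels). The submitters' processing notes name HISAT2 and GRCm38, whereas the study's Methods describe TopHat and mm9 for FPKM values that were not used here. The counting program, annotation, strand setting and treatment of multi-mapped reads are not given in the sources used here. The study's Methods give 3 littermate mice per genotype, which matches the number of libraries, while the labels only number the libraries, so p-values measure the spread between these libraries.

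The counts were fitted in R 4.3.3 with edgeR 4.0.16 (filterByExpr, minimum count 10, minimum total count 15, TMM scaling, quasi-likelihood test, two-sided, Benjamini-Hochberg adjustment over 15600 genes). A call is an adjusted p under 0.05. The standard error is the log2 fold change divided by the square root of F, and 95% intervals use the t distribution of the fit. Libraries of a genotype were no duplicates (chi-square per degree of freedom 7.51 to 15.6). DESeq2 1.42.0, limma 3.58.1 and other scalings, filters and left-out libraries served as alternatives, and the fits were tested on simulated data. With 3 libraries a group no outlier test was made.

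Levels per kilobase used gene length for mitochondrial genes and the longest coding transcript of GENCODE vM1 for all 36 nuclear genes, which understates genes with a long minor transcript. Nuclear copies were found with BLAST 2.17.0 at 90% identity or more. Plots were made with Python 3.11.15 and matplotlib 3.10.9. The members and lists were chosen with earlier results of these data known. The genes named were all mitochondrial members, the matrix-arm core subunits, the extremes and the highest gene of each nuclear group, the leading gene of each list, and others marked as chosen after their values were seen. Of these, 1 gene that this rule names is not reported here by name, and it is left out of the plot of genotype differences, while counts and medians over the set include it.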

Additional observations from a re-analysis of the deposited data

How the results depend on the processing

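Without scaling for library size, where the median of all genes was -0.38 and values are given relative to it, 5 mitochondrial-encoded genes and 3 nuclear subunits were called lower, and Ndufa11 (-0.00057), Ndufb9 (-0.0078) and Ndufa7 (-0.0026) changed sign. In that fit 34.9% of all genes were called lower. Without a filter, 2 mitochondrial-encoded genes were called lower, where 0.635% of all genes were (edgeR adjusted p = 0.0242 for ATP6 and 0.0264 for ATP8), and Ndufa11 (-0.0033) and Ndufb9 (-0.0061) changed sign. DESeq2's Wald test called 3 lower, where 1.51% of all genes were (adjusted p = 0.00529 for ATP6, 0.0103 for ATP8 and 0.0354 for COX3). The causes were not tested. The geometric mean over members moved the genotype difference in the log2 ratio of the sets to -0.29. With library totals, Ndufa11 (-0.044), Ndufb9 (-0.048), Ndufa4 (-0.0020), Ndufs6 (-0.0036), Ndufa7 (-0.0395) and Ndufb7 (-0.022) changed sign, with upper quartile scaling Ndufb9 (-0.00086), and with limma-voom ND1 (0.0035).

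Leaving out each library in turn gave 0 calls among the members, and the log2 fold changes stayed negative for ATP8 (-1.16 to -0.78), ATP6 (-0.69 to -0.45), COX3 (-0.56 to -0.33) and ND3 (-0.83 to -0.57). The genotype difference in the log2 ratio of the sets lay between -0.057 and 0.011. Signs changed within these ranges: COX1 -0.026 to 0.16, ND1 -0.092 to 0.13, ND4 -0.16 to 0.11, ND4L -0.19 to 0.0012 and ND5 -0.085 to 0.073. In the Ndufa group they were Ndufa10 -0.079 to 0.27, Ndufa11 -0.074 to 0.069, Ndufa12 -0.26 to 0.030, Ndufa13 -0.013 to 0.14, Ndufa2 -0.15 to 0.048, Ndufa4 -0.080 to 0.13, Ndufa7 -0.097 to 0.11 and Ndufa8 -0.18 to 0.045. In the Ndufb group they were Ndufb10 -0.070 to 0.19, Ndufb11 -0.0090 to 0.16, Ndufb4 -0.070 to 0.17, Ndufb6 -0.060 to 0.32, Ndufb7 -0.089 to 0.15, Ndufb8 -0.21 to 0.097 and Ndufb9 -0.11 to 0.11. In the other groups they were Ndufc1 -0.091 to 0.085, Ndufc2 -0.16 to 0.0054, Ndufs3 -0.16 to 0.20, Ndufs6 -0.099 to 0.16, Ndufs8 -0.060 to 0.24, Ndufv1 -0.17 to 0.12 and Ndufv2 -0.0011 to 0.25. Without OsxCre library 3, 5 nuclear subunits were higher at an unadjusted p under 0.05 by edgeR, where 7.80% of all genes were.

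Same-numbered libraries did not deviate together (correlations of -0.10, -0.53 and -0.069). Among differently numbered libraries the correlations ran from -0.47 (OsxCre 3 with OsxCre;Stat3fl/fl 1) to 0.53 (OsxCre 2 with OsxCre;Stat3fl/fl 1). OsxCre 3 and OsxCre;Stat3fl/fl 2, the libraries in which most members were highest, had 0.44. With 3 libraries per genotype these values cannot decide whether the numbers pair littermates, so the replicate block was run as an alternative. With the replicate block, 0 members were called and 4 mitochondrial-encoded genes were lower at an unadjusted p under 0.05 (lowest edgeR adjusted p = 0.122), ND1 changed sign (0.0011), and over all genes 1 was called lower and 0 higher. Ndufs7 was left untested by its counts, at most 1 in any library, and the cause of these low counts was not tested. Among the tested members depth limits ATP8, ND3, ND4L and Ndufb4 most, which had at most 290 counts in any library.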
